A study of Mus musculus with 12 samples.

Results

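The 10 genes described here encode the neuropeptides and receptors of the hypothalamic melanocortin and neuropeptide Y (NPY) systems and the ghrelin receptor. They were chosen by symbol: *Pomc*, *Agrp*, *Npy* and *Cartpt* for the peptides, and *Mc3r*, *Mc4r*, *Npy1r*, *Npy2r*, *Npy5r* and *Ghsr* for the receptors. All 10 were found among the 16855 genes listed for mice on chow and the 16744 listed for mice on a high-fat diet (HFD), and all 10 passed the filter on low values, a mean of at least 25 normalized counts. RNA-Seq was performed on the whole hypothalamus of 12 male mice in 4 groups of 3. WT mice and *Gpr75-/-* mice were either kept on chow or given the HFD for 2 weeks from 6 weeks of age, so that all were 8 weeks old at collection. The *Gpr75-/-* mice carried a germline CRISPR/Cas9 null allele on the C57BL/6J background in every tissue, which leaves the first residues of the receptor followed by an early stop codon.

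The arcuate nucleus of the hypothalamus holds neighbouring populations of neurons with opposing actions on feeding. *Pomc* neurons release α-MSH, which activates the melanocortin receptors MC3R and MC4R and lowers food intake, and many of them also make the peptide encoded by *Cartpt*. *Agrp* neurons release AGRP, which blocks those receptors, together with NPY, which acts through its own receptors to raise food intake, and they carry the receptor for the stomach hormone ghrelin. Leptin and feeding are known to raise *Pomc* and lower *Agrp* and *Npy*, and fasting does the opposite.

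The values used here are group means on a log scale, from which levels in CPM (read counts scaled to a common library total) were recovered, and no value of a single mouse was used. The spread between the 3 mice of a group could therefore not be measured from them, and no difference below was tested. The ranges in parentheses cover the rounding of the group means and the 95% counting error of the reads, and do not cover the differences between mice. In bulk tissue, fewer cells of a type and less RNA per cell cannot be told apart. The summed mean normalized counts were 18280462 per mouse on chow and 19420111 on the HFD, and the 10 genes had means of 56.0 to 1117 normalized counts on chow and 49.9 to 1411 on the HFD.

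*Gpr75* itself was measured at 16.7 CPM in WT and 24.6 CPM in *Gpr75-/-* mice on chow, a ratio of 1.47 (1.32 to 1.64). On the HFD it was measured at 19.9 CPM in WT and 18.4 CPM in *Gpr75-/-* mice, a ratio of 0.927. An allele with an early stop codon can still be transcribed, so the level of this mRNA does not check the genotype labels. A rough sign of the spread between mice was available for each gene: the gap between its arithmetic mean and its log-scale mean over the 6 mice of a diet, which widens when the mice differ. The gap grows with the square of the spread, so a small gap does not show that the mice were alike. On the log2 scale the gap of the 10 genes ran from -0.01 to 0.05 for chow and from -0.01 to 0.04 for the HFD, beside 0.01 for the median gene on either diet. For the choroid plexus genes *Ttr*, *Kl* and *Folr1* on chow the gap was 4.10, 0.79 and 0.63, so the mice on chow stood far apart in these transcripts. The widest gaps of the 10 genes belonged to *Pomc* on chow (0.0457, with a rounding error of 0.017) and *Agrp* on the HFD (0.0385, with a rounding error of 0.0079), which the rounding does not separate from the 95th percentile of all genes (0.0375 on chow and 0.0351 on the HFD).

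Set per kb of exonic length, the peptide genes *Cartpt* and *Npy* stood highest among the 10 in WT mice on chow, at 50.6 CPM per kb (48.1 to 53.1) and 41.1 CPM per kb (38.4 to 44.0). *Pomc* followed at 13.0 CPM per kb (12.0 to 14.0). The highest receptor was *Npy2r* at 9.32 CPM per kb (8.77 to 9.92), ahead of *Npy1r* at 6.56 CPM per kb (6.12 to 7.03). *Npy5r* at 3.19 CPM per kb (2.88 to 3.54), *Agrp* at 2.66 CPM per kb (2.25 to 3.14) and *Mc3r* at 2.40 CPM per kb (2.14 to 2.69) came next, with ranges that overlap between neighbours in that order. *Mc4r* at 1.46 CPM per kb (1.27 to 1.67) and *Ghsr* at 0.922 CPM per kb (0.803 to 1.06) were lowest. The first 5 places were held by the same genes in the same order in all 4 groups, although in *Gpr75-/-* mice on chow the ranges of *Pomc* (10.7 CPM per kb, 9.90 to 11.7) and *Npy2r* (9.88 CPM per kb, 9.30 to 10.5) overlap. *Agrp* and its neighbours *Npy5r* and *Mc3r* changed places. In WT mice on the HFD *Agrp* was at 1.97 CPM per kb (1.64 to 2.38), below *Mc3r* at 2.44 CPM per kb (2.19 to 2.73), and these ranges overlap. The exonic length used for *Agrp*, 1013 bases, comes from GRCm38, while the *Agrp* locus listed with the counts spans 70696 bases.

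**Figure D1:**
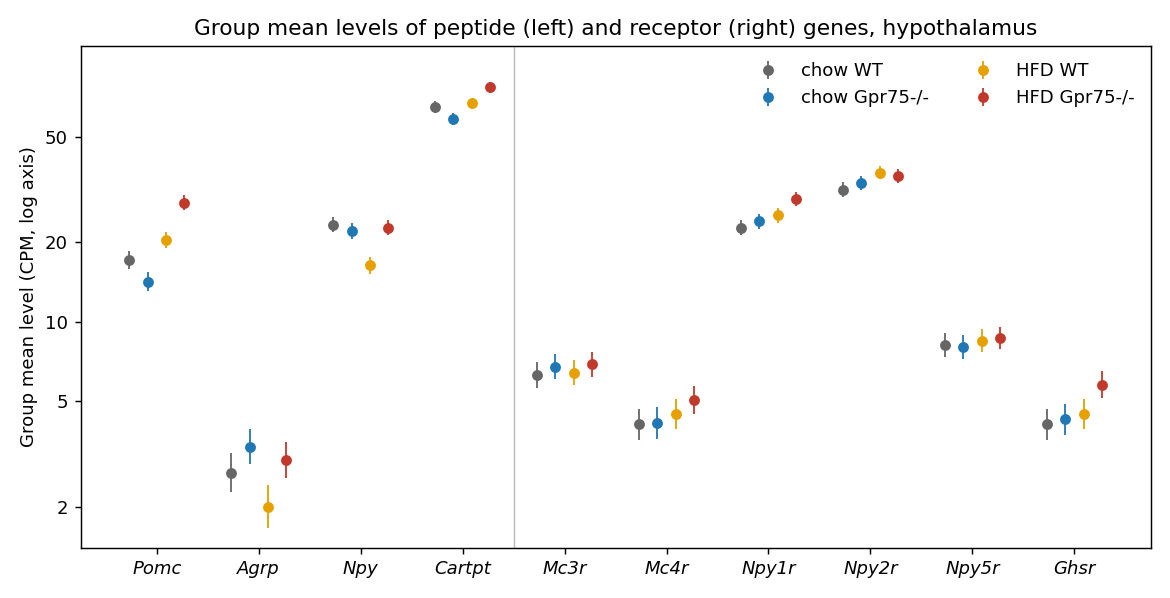
Group mean level of each gene in CPM on a log axis, with the 4 peptide genes left of the line and the 6 receptor genes right of it. Points are means of 3 mice and bars show rounding and 95% counting error only. *Pomc* in *Gpr75-/-* mice on the HFD (28.2 CPM) lies above the other 3 groups (14.2 to 20.4 CPM), and *Npy* in WT mice on the HFD (16.3 CPM) lies below the other 3 (22.1 to 23.3 CPM).

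The upstream sequences of *Pomc*, *Npy* and *Ghsr* are shown because these genes, with *Agrp*, were the ones past a 1.2-fold genotype difference on the HFD. Each is the 250 bases before the RefSeq start of the gene on the plus strand of GRCm38.p6, at chr12:3954695-3954944 for *Pomc*, chr6:49822460-49822709 for *Npy* and chr3:27371101-27371350 for *Ghsr*. Capitals mark matches to 7 motifs searched on both strands.
Pomc: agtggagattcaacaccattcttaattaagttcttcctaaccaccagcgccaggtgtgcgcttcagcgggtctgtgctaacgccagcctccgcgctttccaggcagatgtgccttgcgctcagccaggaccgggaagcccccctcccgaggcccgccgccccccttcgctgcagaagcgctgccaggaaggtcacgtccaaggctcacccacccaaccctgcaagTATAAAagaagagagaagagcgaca
Npy: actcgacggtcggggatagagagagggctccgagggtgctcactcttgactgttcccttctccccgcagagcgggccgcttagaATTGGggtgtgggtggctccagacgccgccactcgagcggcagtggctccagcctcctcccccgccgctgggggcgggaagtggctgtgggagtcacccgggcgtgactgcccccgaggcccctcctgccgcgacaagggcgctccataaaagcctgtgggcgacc
Ghsr: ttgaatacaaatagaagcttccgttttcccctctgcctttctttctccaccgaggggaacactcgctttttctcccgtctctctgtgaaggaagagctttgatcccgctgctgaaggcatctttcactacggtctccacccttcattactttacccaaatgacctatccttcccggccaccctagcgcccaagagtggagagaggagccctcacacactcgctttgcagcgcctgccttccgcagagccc

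The capitals in *Pomc* are a TATA box (TATAAA) at positions -25 to -20 from the start, and those in *Npy* a CCAAT box (CCAAT, here on the reverse strand) at -166 to -162. *Ghsr* held none of the 7. Among 32851 promoters of the same length, 12.4% held TATAAA and 33.8% held CCAAT. The other 5 motifs were the STAT site TTCNNNGAA (7.02% of promoters), the cAMP response element TGACGTCA (1.55%), its core TGACG (17.8%, which lies within the former), the FoxO site TGTTTAC (3.17%) and the E-box CACGTG (6.02%). RefSeq promoters were matched for 8 of the 10 genes. Of the others, *Cartpt* held the full cAMP response element at -112 to -105, *Npy5r* an E-box at -40 to -35 and a CCAAT box at -103 to -99, and *Mc3r* a CCAAT box at -145 to -141, while *Npy1r* and *Npy2r* held none. The windows of *Cartpt*, *Npy5r* and *Npy1r* overlap an annotated exon. Such matches describe the letters only.

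*Pomc* (chromosome 12, 4004951 to 4010642, GRCm39), which encodes the precursor of α-MSH, differed between the genotypes in opposite directions on the 2 diets. On chow it was measured at 17.1 CPM in WT and 14.2 CPM in *Gpr75-/-* mice, a log2 difference of -0.28 (-0.45 to -0.10) and a ratio of 0.826 (0.734 to 0.931). On the HFD it was measured at 20.4 CPM in WT and 28.2 CPM in *Gpr75-/-* mice, a log2 difference of 0.46 (0.32 to 0.61) and a ratio of 1.38 (1.25 to 1.53). The difference between these log2 differences was 0.74 (0.49 to 0.99), the largest of the 10 genes. *Pomc* is also made in the pituitary, whose defining markers *Gh* and *Prl* were not among the genes listed on either diet. The other 3 pituitary markers were low. *Tshb* was measured at 2.06 CPM in WT and 1.74 CPM in *Gpr75-/-* mice on chow and at 2.00 and 1.53 CPM on the HFD, while *Lhb*, listed on chow, was at 1.19 and 1.31 CPM and *Cga*, listed on the HFD, at 1.11 and 1.18 CPM, both below the filter on low values. The scale of the group means holds no level below 1 CPM. *Lhb* and *Cga* lay near that floor, so their directions cannot be read. The part of pituitary tissue in the *Pomc* values was not tested.

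*Npy* (chromosome 6, 49799690 to 49806487) encodes the orexigenic peptide NPY. On chow it was measured at 23.3 CPM in WT and 22.1 CPM in *Gpr75-/-* mice, a log2 difference of -0.08 (-0.23 to 0.08). On the HFD it was measured at 16.3 CPM in WT and 22.7 CPM in *Gpr75-/-* mice, a log2 difference of 0.47 (0.32 to 0.63) and a ratio of 1.39 (1.25 to 1.55). WT mice on the HFD were thus the low group, and the *Gpr75-/-* mice on the HFD lay near both chow groups. The difference between the log2 differences on the 2 diets was 0.55 (0.31 to 0.79).

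*Agrp* (chromosome 8, 106293330 to 106364025) encodes the antagonist of the melanocortin receptors and was the least counted of the 10. On chow it was measured at 2.69 CPM in WT and 3.37 CPM in *Gpr75-/-* mice, a log2 difference of 0.32 (-0.01 to 0.65). On the HFD it was measured at 2.00 CPM in WT and 3.0 CPM in *Gpr75-/-* mice, a log2 difference of 0.58 (0.23 to 0.94) and a ratio of 1.5 (1.17 to 1.92). *Agrp* was thus higher in *Gpr75-/-* mice on both diets, with a range that includes 0 on chow. The change of its difference from chow to the HFD was 0.26 (-0.23 to 0.76). The annotated *Agrp* locus spans 70696 bases and overlaps *Ctcf*, *Ripor1*, the long noncoding RNA *Gm38250* and the pseudogene *Gm45855*, and how reads shared by overlapping genes were counted is not given in the sources used here. *Gm45855*, which lies within the span for 880 bases, differed by 0.35 (-0.07 to 0.76) on chow and 0.36 (-0.03 to 0.74) on the HFD, and both ranges include 0. For the other 3 the log2 differences were -0.24 (*Gm38250*), -0.10 (*Ctcf*) and 0.00 (*Ripor1*) on chow and 0.04, 0.00 and 0.14 on the HFD. The part of shared reads in the *Agrp* values was not tested. None of the other 9 genes overlapped a listed gene.

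*Cartpt* (chromosome 13, 100034997 to 100037599), the precursor of the CART peptides, followed the directions of *Pomc* with smaller differences. On chow it was measured at 64.6 CPM in WT and 58.4 CPM in *Gpr75-/-* mice, a log2 difference of -0.14 (-0.26 to -0.03). On the HFD it was measured at 66.8 CPM in WT and 76.6 CPM in *Gpr75-/-* mice, a log2 difference of 0.20 (0.09 to 0.31). The ratio was 0.905 on chow and 1.15 on the HFD, and the log2 differences on the 2 diets lay 0.34 (0.15 to 0.53) apart. *Cartpt* did not reach 1.2-fold on either diet, whereas *Pomc* of the anorexigenic pair and both *Agrp* and *Npy* of the orexigenic pair were higher by that size in *Gpr75-/-* mice on the HFD.

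Of the receptor genes, *Ghsr* (chromosome 3, 27425500 to 27432159), the ghrelin receptor, had the largest difference. It was measured on the HFD at 4.47 CPM in WT and 5.78 CPM in *Gpr75-/-* mice, a log2 difference of 0.37 (0.11 to 0.63) and a ratio of 1.29 (1.08 to 1.54). On chow it was measured at 4.09 CPM in WT and 4.27 CPM in *Gpr75-/-* mice, a log2 difference of 0.06 (-0.22 to 0.35). The range of the change between the diets, 0.31 (-0.09 to 0.70), includes 0.

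Neither melanocortin receptor gene differed by 1.2-fold on either diet. *Mc4r* (chromosome 18, 66990775 to 66993577), the receptor whose loss causes obesity in mice and people, was measured at 4.09 CPM in WT and 4.15 CPM in *Gpr75-/-* mice on chow and at 4.47 and 5.06 CPM on the HFD. Its log2 differences were 0.02 (-0.27 to 0.31) on chow and 0.18 (-0.08 to 0.44) on the HFD. *Mc3r* (chromosome 2, 172090412 to 172093034), the receptor also carried by arcuate neurons themselves, was measured at 6.30 and 6.77 CPM on chow and at 6.41 and 6.89 CPM on the HFD. Its log2 difference was 0.10 on both diets (-0.13 to 0.34 on chow and -0.13 to 0.33 on the HFD). All 4 ranges include 0.

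None of the 3 NPY receptor genes differed by 1.2-fold on either diet. *Npy1r* (chromosome 8, 67149844 to 67159444), a receptor for the feeding response to NPY, was measured at 22.7 CPM in WT and 23.9 CPM in *Gpr75-/-* mice on chow and at 25.2 and 29.0 CPM on the HFD. Its log2 difference was 0.08 (-0.07 to 0.23) on chow and 0.20 (0.06 to 0.34) on the HFD. *Npy5r* (chromosome 8, 67132617 to 67140780), another receptor for the feeding response and the neighbour of *Npy1r* at 9063 bases, was measured at 8.16 and 8.0 CPM on chow and at 8.48 and 8.65 CPM on the HFD, with log2 differences of -0.03 (-0.25 to 0.19) and 0.03 (-0.18 to 0.24). *Npy2r* (chromosome 3, 82445690 to 82455391), the presynaptic receptor that lowers NPY release, was measured at 31.5 and 33.4 CPM on chow and at 36.5 and 35.4 CPM on the HFD. Its log2 difference was 0.08 (-0.05 to 0.22) on chow and -0.04 (-0.17 to 0.09) on the HFD, where it was the single gene of the 10 below WT, by no more than the rounding of the group means.

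**Figure D2:**
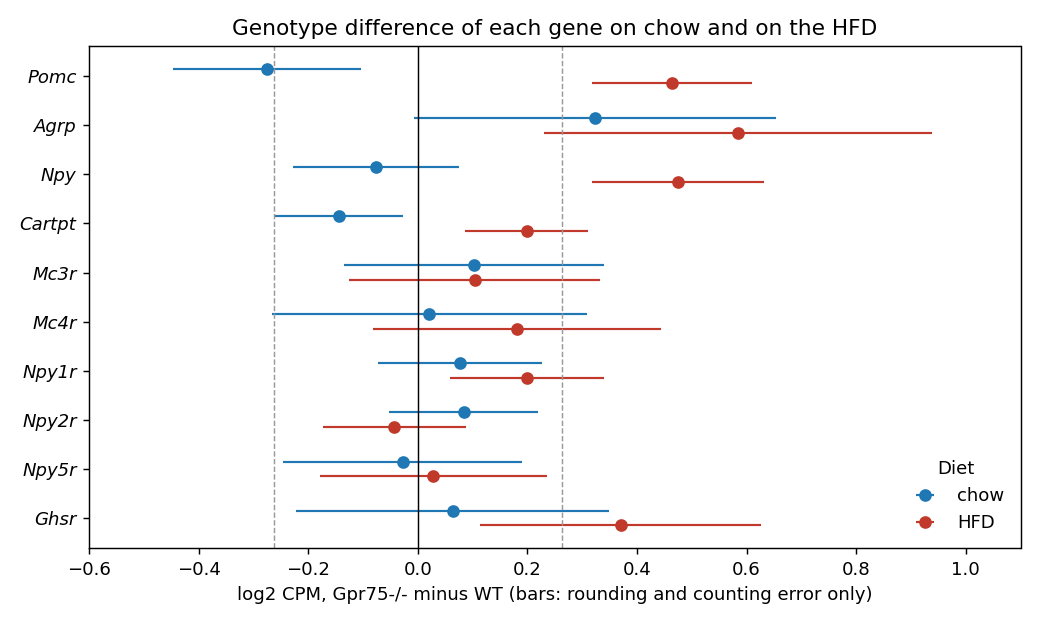
Log2 difference in CPM between *Gpr75-/-* and WT mice for each gene on chow (blue) and on the HFD (red). Bars show rounding and 95% counting error only, and dashed lines mark a 1.2-fold difference. *Pomc* moves from -0.28 on chow to 0.46 on the HFD, while *Mc3r* stands at 0.10 on both.

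Counted by a difference of at least 1.2-fold, 1 of the 10 genes (*Agrp*) was higher and 1 (*Pomc*) lower in *Gpr75-/-* mice on chow, beside 5.37% of 16201 genes higher and 5.25% lower. *Pomc* on chow was so near that size that the rounding of its group means could take it to the other side. On the HFD, 4 of the 10 (*Pomc*, *Agrp*, *Npy* and *Ghsr*) were higher and 0 lower, beside 4.45% of 16297 genes higher and 3.63% lower. Low counts scatter more, so the background was also taken by count class. Among genes with means of 40 to 200 normalized counts, the class of *Agrp*, *Ghsr*, *Mc3r*, *Mc4r* and *Npy5r*, 11.4% were higher and 9.59% lower on chow, and 9.81% higher and 6.57% lower on the HFD. In that class, 1 of the 5 genes was higher on chow and 2 on the HFD. Among genes with means of 200 to 2000 normalized counts, the class of *Pomc*, *Npy*, *Cartpt*, *Npy1r* and *Npy2r*, 1.33% were higher and 1.74% lower on chow, and 0.727% higher and 1.2% lower on the HFD. In that class, 1 of the 5 genes was lower on chow and 2, *Pomc* and *Npy*, were higher on the HFD. *Pomc* and *Npy* lie toward the lower end of that class, and the share among genes nearer to their counts was not taken. By sign alone, 6 of the 10 were above WT on chow with a median log2 difference of 0.04, and 9 of the 10 on the HFD with a median of 0.20, where the median over all genes was 0 on both diets. Over all genes, 7116 of 16201 were above and 6710 below WT on chow, and 7673 of 16297 above and 5824 below on the HFD. The signs of *Mc4r* and *Npy5r* on chow and of *Npy2r* and *Npy5r* on the HFD lie within the rounding of the group means.

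**Figure D3:**
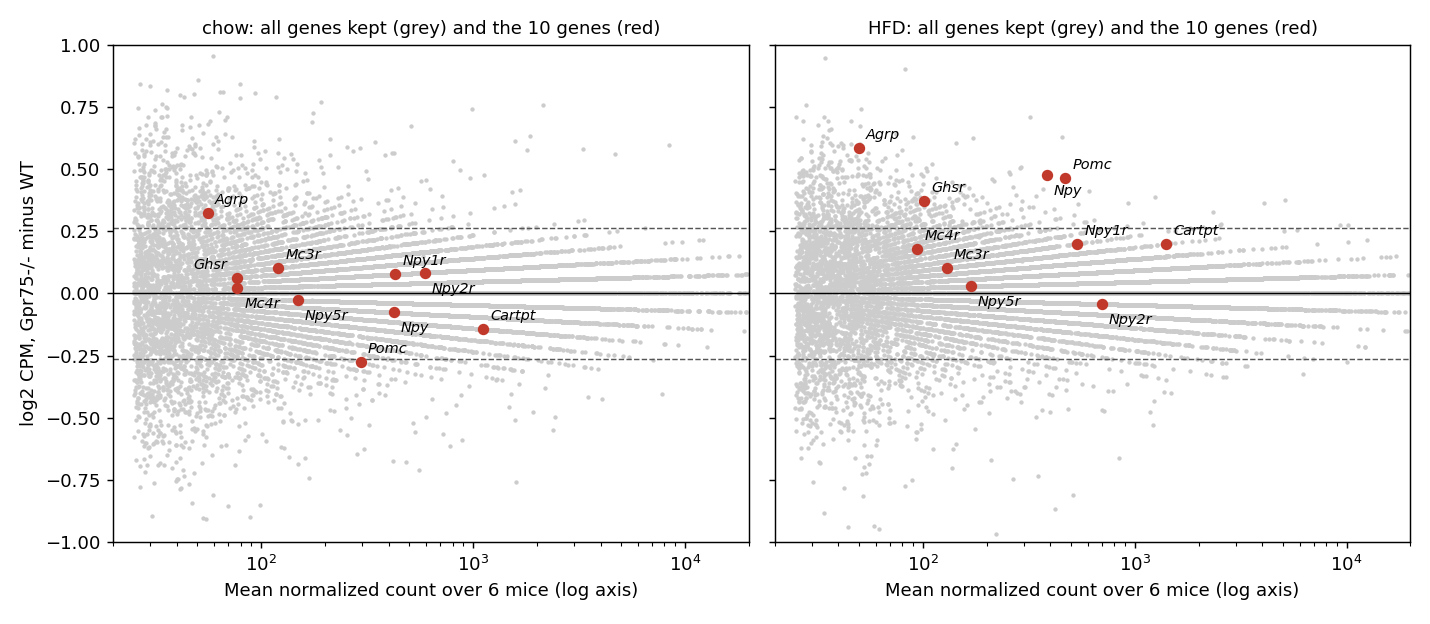
Log2 difference in CPM between *Gpr75-/-* and WT mice against the mean normalized count (log axis) for every gene kept (grey) and the 10 genes (red), on chow (left) and the HFD (right). Dashed lines mark a 1.2-fold difference, and 73 genes on chow and 77 on the HFD lie outside the axes. On the HFD *Pomc* (469 normalized counts) and *Npy* (385) lie past the upper dashed line. In the class of 200 to 2000 normalized counts, 0.727% were higher by 1.2-fold. Both genes lie toward the lower end of that class.

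The diets were normalized in separate tables, so the ratios of HFD to chow levels below are descriptions across tables, and their ranges do not cover the separate normalization. The median gene had the same level on both diets in either genotype, and of 16000 genes 5.38% were higher and 8.54% lower by 1.2-fold on the HFD in WT mice, and 3.79% higher and 6.74% lower in *Gpr75-/-* mice. In WT mice *Npy* on the HFD was 0.701 (0.628 to 0.782) of its level on chow, *Agrp* was 0.743 (0.577 to 0.958) and *Pomc* was 1.19 (1.07 to 1.33). In *Gpr75-/-* mice the same ratios were 1.03 (0.925 to 1.14) for *Npy*, 0.891 (0.715 to 1.11) for *Agrp* and 1.99 (1.78 to 2.22) for *Pomc*. The ranges of the WT and *Gpr75-/-* ratios overlapped for *Agrp* and did not overlap for *Npy* or *Pomc*. The ratio of *Pomc* lay above 1 in both genotypes. These ranges leave out the differences between mice. *Cartpt* had ratios of 1.03 in WT and 1.31 (1.21 to 1.42) in *Gpr75-/-* mice, and *Ghsr* 1.09 and 1.35 (1.13 to 1.62). The other receptor genes had ratios of 1.02 to 1.16 in WT and 1.02 to 1.22 in *Gpr75-/-* mice.

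Of 40 further genes of melanocortin, NPY, ghrelin and leptin signalling, 30 were measured on chow and 31 on the HFD. On chow 0 of the 30 differed by 1.2-fold and the median difference was 0. On the HFD 3 of the 31 were higher and 2 lower, and 22 were above and 7 below WT, with a median of 0.07, beside the 4.45% higher and 3.63% lower of all genes and the 9.81% higher of genes with 40 to 200 normalized counts, the class of all 3 higher genes. The 3 higher genes were *Otp* (7.28 CPM in WT and 9.76 CPM in *Gpr75-/-* mice, log2 difference 0.42, 0.21 to 0.63) and *Sim1* (6.41 and 8.32 CPM, 0.38, 0.15 to 0.60), transcription factors of the paraventricular nucleus, and the leptin receptor gene *Lepr* (2.66 and 3.32 CPM, 0.32, -0.0022 to 0.64). The 2 lower genes were *Corin*, a protease that limits agouti action in the skin (1.77 and 1.27 CPM, -0.48, -0.92 to -0.04), and *Atrn*, an accessory receptor for agouti (128.0 and 106 CPM, -0.27, -0.38 to -0.17). *Mrap2*, the accessory protein of MC4R, differed by 0.13 (0.01 to 0.26), and the melanocortin convertase genes were not past the fold on either diet. *Ghrl*, which encodes ghrelin, and *Mboat4*, the enzyme that acylates it, were among 9 genes listed on neither diet, with *Asip*, *Mc1r*, *Mc5r*, *Mrap*, *Pyy*, *Ppy* and *Npy4r*.

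**Figure D4:**
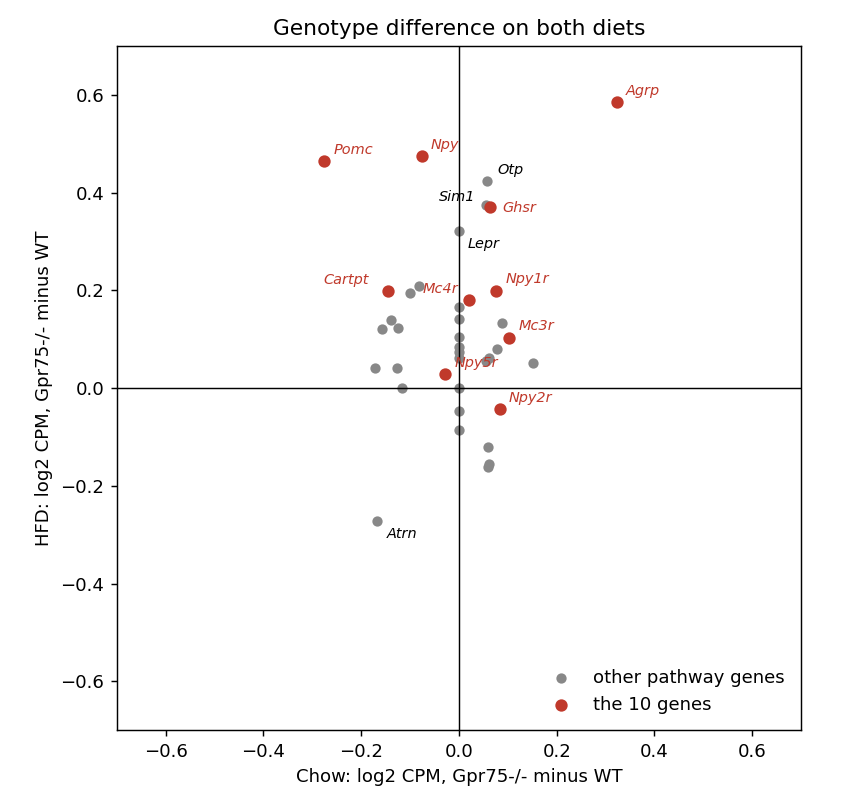
Log2 difference in CPM between *Gpr75-/-* and WT mice on chow (x axis) and on the HFD (y axis) for the 10 genes (red) and the pathway genes measured on both diets (grey). *Pomc* (-0.28 on chow, 0.46 on the HFD) and *Npy* (-0.08, 0.47) lie in the upper left, and *Agrp* (0.32, 0.58) in the upper right.

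Marker genes of the tissue and of other cell types were read beside the 10 genes. For the counts past 1.2-fold below, the shares over all genes were 5.37% higher and 5.25% lower on chow. On the HFD they were 4.45% higher and 3.63% lower. Of 10 markers of hypothalamic nuclei outside the 10 genes, 9 were measured. On the HFD 8 of the 9 were above WT and 0 below, with a median difference of 0.25. The summed level over all 9 was 761 CPM in WT and 906 CPM in *Gpr75-/-* mice. Past 1.2-fold were 4 of them: *Pmch* (0.37), *Hcrt* (0.33), *Nr5a1* (0.32) and *Oxt* (0.28). These mark the lateral hypothalamus (the peptide genes *Pmch* and *Hcrt*), the ventromedial nucleus (*Nr5a1*, a transcription factor) and oxytocin neurons (*Oxt*). The other 5 did not reach that size on the HFD: *Trh* (0.25), *Six6* (0.16), *Sst* (0.10), the vasopressin gene *Avp* (0.05) and *Nkx2-1* (0.00). On chow 6 of the 9 were above and 3 below, 0 past the fold, with sums of 773 and 803 CPM. The general neuronal markers *Snap25*, *Rbfox3*, *Syt1*, *Tubb3* and *Elavl4* had summed levels of 3935 and 3801 CPM on chow and 3674 and 3609 CPM on the HFD, 0 of 5 past the fold. The 8 oligodendrocyte markers were below WT in 8 of 8 on both diets, with sums of 11498 and 9805 CPM on chow and 12082 and 10346 CPM on the HFD, and 2 and 5 of them were past the fold. Of 7 choroid plexus markers, 6 passed the filter on chow and all 6 were past the fold and higher in *Gpr75-/-* mice. The sums over all 7 were 345 and 528 CPM, of which *Enpp2*, also expressed by oligodendrocytes, made up 305 and 461 CPM, and these are log-scale means of mice that stood far apart. Red blood cell markers were higher past the fold in 5 of 5 on chow, with sums of 277 and 443 CPM. On the HFD 2 of 5 choroid plexus markers (sums of 369 and 326 CPM) and 1 of 5 red blood cell markers (314 and 280.2 CPM) were lower past the fold. Astrocyte and microglia markers had 0 of 4 past the fold on either diet, with sums of 1217 to 1353 CPM and 132 to 142 CPM over the 4 groups. The part of tissue makeup or dissection in the differences of the 10 genes was not tested.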

How the data were processed

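Total RNA of the hypothalamus of 12 mice was made into SMART-Seq mRNA libraries, and the submitters' processing notes name STAR, featureCounts, StringTie, DESeq2 and the build GRCm39, without versions or roles. The authors deposited 1 table per diet over 6 mice. The deposited signal per gene is the authors' mean normalized count over the 6 mice, scaled for library size, and it was used with 2 group means. The deposited group means are log2 values, log2(1 + log2 CPM) to 2 decimals. Whether mice were averaged as log2 CPM or as this double log could not be told, so a recovered CPM is a log-scale mean of either kind, and the gap between arithmetic and log-scale means depends on which. This scale was inferred from the values: the CPM recovered from it and the mean normalized counts lay within 0.05 log2 units for 97.8% (chow) and 98.2% (HFD) of genes. The columns of the authors' own comparisons (fold changes, standard errors, statistics and p-values) were not used. No per-sample column was left unmatched.

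Differences were taken between group means as log2 CPM, *Gpr75-/-* minus WT, for the 16201 (chow) and 16297 (HFD) genes with a mean of at least 25 normalized counts and group values above 0. Ranges add the rounding error to a 95% Poisson counting error, which covers counting error only. The counting SE of the 10 differences was 0.04 to 0.16 (chow) and 0.03 to 0.17 (HFD). No test was possible on group means, so a difference of at least 1.2-fold served as the count. The 10 genes are all named, with pathway genes past that fold, at most 5 per direction and diet, and the markers beside a result. *Mrap2*, and the pathway genes listed on neither diet, fall outside that rule and were added with the values known. The genes, lists, motifs and fold were chosen with earlier results of these data known. Exonic lengths came from GENCODE vM21 and promoters from RefSeq, both GRCm38, and were joined by gene only. Python 3.11.15, numpy 2.4.6, pandas 2.3.3 and scipy 1.17.1 were used. The recovery of differences was tried on simulated data put on the same assumed scale and averaged as the double log. That trial could not check whether the scale itself is right.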

Additional observations from a re-analysis of the deposited data

How the results depend on the processing

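No paired analysis was possible because the values used are group means, which carry no replicate numbers. For the same reason the count models, the replicate block and the omission of single mice were not run, so whether a difference rests on 1 mouse is not known. A pseudocount of 1 normalized count kept the direction of all 10 genes on both diets, and the largest move of a log2 difference was 0.012. Centring on the median gene and dropping the filter on low means could not move the 10 genes, since the median difference was 0 and all 10 passed the filter. The rounding of the group means (an alternative chosen after seeing the data) leaves no direction for *Mc4r* and *Npy5r* on chow or for *Npy2r* and *Npy5r* on the HFD, whose smallest allowed difference is 0. The counts at the 1.2-fold size depend on that size. On chow, the number higher in *Gpr75-/-* mice was 0 at 1.5-fold (0.543% of all genes), and the number lower was 2 at 1.1-fold (15% of all genes) and 0 at 1.5-fold (0.488%). *Pomc* on chow lies just past 1.2-fold, and at the smallest difference the rounding allows the number lower on chow was 0. On the HFD, the number higher was 7 at 1.1-fold (14.3% of all genes) and 0 at 1.5-fold (0.209%), with *Agrp* just under 1.5-fold. The other 22 of 28 alternative counts, those from centring and from no filter included, lay within 1.5 times the counts given.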
